A study of Mus musculus with 12 samples.

Results

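Immediate early and dissociation stress genes are 39 genes that were taken by name from a table of raw read counts of 47729 genes. They are the AP-1 subunits of the Fos and Jun families, Egr, Nr4a and Klf transcription factors, Atf3, Maff, Myc, Ier genes, genes whose products shut these signals off, Btg2 and Gadd45 genes, and heat shock genes. All 39 were found in the table, and 33 of them had enough reads to be tested. The table covers mesenchymal cells sorted from the uterus of healthy, cycling female mice of the strain Pdgfrb-BAC-eGFP, in which green fluorescent protein (GFP) is driven from Pdgfrb sequence on a bacterial artificial chromosome. Uteri were digested with enzymes and cells were sorted by fluorescence, in both groups. The 6 Naive libraries hold GFPtotal cells, a mixture of GFPhigh perivascular cells and GFPlow stromal fibroblasts in an unstated proportion. The 6 Stromal libraries hold the GFPlow cells alone, which the sample labels call GFPdim. No age or oestrous stage was stated. The series mentions 12 mice, but nothing ties a library to 1 mouse. The spread behind each p-value is that of libraries, and may be technical. The comparison of Naive with Stromal serves, in the series' own terms, to infer what GFPhigh cells express.

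Immediate early genes are switched on within minutes of a signal, from factors already present in the cell. Serum response factor at CArG boxes, CREB at cAMP response elements and NF-kB at kappaB sites are their classical activators, and heat shock genes answer instead to heat shock factor. Their transcripts are short-lived, partly because AU-rich stretches in the 3′ untranslated region recruit decay proteins such as tristetraprolin, itself the product of Zfp36. Enzymatic digestion of a tissue is a known trigger of these genes. Every library here went through digestion and sorting, so a level already present in the uterus and one gained in preparation cannot be told apart.

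The start regions of the genes that rose in Naive are shown, with that of Fos, so that the sites of the activators named above can be seen where they are present. The window of Zfp36l1 held none of those sites. The windows are the 250 bases before a start site in RefSeq, on the build GRCm38.p6, and 33 of the 39 members had at least 1 window in that table. Fosl1, Ier2, Klf10, Egr1, Egr3 and Myc had none. Capitals mark the letters of any motif searched, on either strand. The Fos window lies at chr12:85473640-85473889 on the plus strand, and that of Atf3 at chr1:191183334-191183583 on the minus strand. The Nr4a3 window is chr4:48045055-48045304 on the plus strand, and that of Btg2 is chr1:134079156-134079405 on the minus strand. Zfp36, Zfp36l1 and Nfkbia have theirs on the minus strand at chr7:28379229-28379478, chr12:80113014-80113263 and chr12:55492648-55492897.
Fos: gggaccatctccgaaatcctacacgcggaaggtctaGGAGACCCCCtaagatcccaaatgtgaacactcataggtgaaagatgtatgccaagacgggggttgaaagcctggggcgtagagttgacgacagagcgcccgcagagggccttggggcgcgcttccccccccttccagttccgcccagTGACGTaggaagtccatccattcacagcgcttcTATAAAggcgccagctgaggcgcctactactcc
Atf3: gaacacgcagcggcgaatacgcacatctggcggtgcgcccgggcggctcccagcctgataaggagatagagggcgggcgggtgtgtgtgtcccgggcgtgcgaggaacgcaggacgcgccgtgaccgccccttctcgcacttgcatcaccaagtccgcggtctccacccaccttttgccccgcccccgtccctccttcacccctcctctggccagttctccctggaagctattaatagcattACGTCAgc
Nr4a3: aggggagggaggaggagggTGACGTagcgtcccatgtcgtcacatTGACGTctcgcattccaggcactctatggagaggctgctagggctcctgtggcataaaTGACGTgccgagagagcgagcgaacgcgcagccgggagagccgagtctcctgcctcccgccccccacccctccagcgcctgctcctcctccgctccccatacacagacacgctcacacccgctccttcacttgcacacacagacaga
Btg2: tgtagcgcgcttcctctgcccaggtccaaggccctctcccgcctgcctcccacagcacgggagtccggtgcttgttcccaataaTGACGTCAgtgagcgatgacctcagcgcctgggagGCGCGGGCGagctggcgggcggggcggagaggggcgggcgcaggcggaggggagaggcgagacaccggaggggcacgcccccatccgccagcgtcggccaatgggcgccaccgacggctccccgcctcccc
Zfp36: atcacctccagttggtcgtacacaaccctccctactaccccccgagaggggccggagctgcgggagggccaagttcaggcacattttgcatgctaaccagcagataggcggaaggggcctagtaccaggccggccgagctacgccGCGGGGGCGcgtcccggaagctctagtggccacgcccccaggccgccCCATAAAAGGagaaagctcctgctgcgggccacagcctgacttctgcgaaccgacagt
Zfp36l1: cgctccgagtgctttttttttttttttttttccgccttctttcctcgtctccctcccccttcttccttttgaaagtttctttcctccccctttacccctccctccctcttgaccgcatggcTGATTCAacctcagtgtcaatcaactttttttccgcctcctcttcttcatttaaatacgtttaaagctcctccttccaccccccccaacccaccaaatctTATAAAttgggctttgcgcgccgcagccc
Nfkbia: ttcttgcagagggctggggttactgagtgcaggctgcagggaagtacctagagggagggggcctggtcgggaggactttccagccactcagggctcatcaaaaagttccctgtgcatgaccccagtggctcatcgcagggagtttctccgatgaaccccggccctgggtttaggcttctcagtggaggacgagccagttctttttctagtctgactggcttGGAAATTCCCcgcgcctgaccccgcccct

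The shorter form of the cAMP response element, TGACGT, stood in the windows of Fos, Atf3, Nr4a3 and Btg2 and in those of Dusp1, Dusp5, Egr2, Maff and Tnfaip3. That was 11 of the 42 windows of the members (26.2%), against 6.47% of all 32851 windows in the table. The full form TGACGTCA, which contains the shorter one on both strands, was found for Btg2, Dusp1 and Maff, in 7.14% of member windows and 1.55% of all. A CArG box stood in the windows of 3 of 33 genes, Zfp36, Dusp5 and Egr2 (14.3% of member windows, most of them of Egr2, and 1.47% of all). Sites beyond the 250 bases were not searched. A kappaB site was found for 7 genes, Nfkbia, Ier3 and Tnfaip3 among them (16.7% and 3.90%). The letters GCGNGGGCG, a site of the Egr factors, were found for 11 genes (26.2% and 4.70%). For the AP-1 site TGANTCA the shares were 4.76% and 6.75%, with Tnfaip3 and Zfp36l1 as the genes. The heat shock pair GAANNTTC stood in the windows of Hspa1a, Hspa1b, Hspb1, Jun and Fosl2 (11.9% and 6.69%). Its outward form TTCNNGAA was found for Hsph1 and Egr2 (7.14% and 7.17%), and the TATA letters TATAAA for 6 genes (14.3% and 12.4%). Several windows can belong to 1 gene, as in Egr2 with 5 overlapping or neighbouring ones, and a match is a description of letters only.

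AU-rich letters marked the other end of these transcripts. The heptamer TATTTAT, a core of the sites that tristetraprolin binds, was found in the 3′ untranslated region of 23 of 39 members (59.0%) and of 22 of the 33 tested (66.7%). Of 11453 tested protein-coding genes with such a region, 32.4% held it. Ier3 held 4 copies, Zfp36, Zfp36l1, Dusp1 and Fosl2 held 3 each, and Egr1, Egr2, Myc and all Hspa1 genes held none. Below are the 30 bases with most copies for 5 members, from GENCODE M21 transcripts on GRCm38, with the heptamer in capitals.
Zfp36: ttTATTTATgacgacttTATTTATtgtatt
Socs3: ataTATTTATATTTATactcagaaaagaaa
Ier3: tctaattaaTATTTATgTATTTATgtatat
Nfkbia: taagatgtaTATTTATtaaacagattttta
Fos: aTATTTATatttttattttatttttttcta
Zfp36 and Nfkbia rose in the comparison below, and Ier3, Socs3 and Fos did not pass the test. The members are also compact genes. Their median span in the genome was 3951 bases with 3 exons, against 27148 bases and 10 exons for protein-coding genes tested.

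Total counts were 12631266 to 14950639 in Naive and 14339804 to 18425596 in Stromal libraries, and mitochondrial genes took 32.4% to 49.0% of them. That share was 32.4% to 40.5% in Naive 3, 4 and 5, 45.3% to 49.0% in Naive 1, 2 and 6, and 35.1% to 45.7% in Stromal. In the count file of the library labelled Stromal 6, the column carries the name N8, while the other 11 carry the name of their label. Its summed level of 12 pericyte markers, 48.9 CPM (read counts scaled to the size of the library), lay within the Stromal range of 30.2 to 100.5 and below the Naive range of 994 to 1713. Heyl alone gave 22.8 of the 48.9, and 80.1 of the 100.5 in Stromal 2. Of the 12, Rgs5 (10.9 CPM) and Kcnj8 (1.57) had their highest Stromal value in Stromal 6, and the rest did not. The smooth muscle markers Acta2 (5.16 CPM) and Myh11 (9.07) did too, but Cnn1, Actg2, Smtn and Synpo2 did not. These Rgs5, Kcnj8, Acta2 and Myh11 values lay below those of every Naive library. Naive 3, 4 and 5 stood apart from all others on the first principal component (34.0% of variance). On the second (11.4%), Stromal 5 lay at 1 end, at -86.6, and Naive 1, 2 and 6 at the other, at 48.8 to 51.9. The remaining libraries lay between -26.2 and 4.45. Summed over 14 interferon response genes, the level was 2186 to 2398 CPM in Naive 3, 4 and 5, 363 to 677 in Naive 1, 2 and 6, and 136 to 278 in Stromal, with no gene of the list at 0 throughout. As a sum, smooth muscle markers did not overlap, at 454 to 754 CPM in Naive and 299 to 412 in Stromal for 10 genes (4 of 8 tested called higher). Synpo2, the largest part of the Stromal sum, did overlap (264 to 346 against 236 to 366 CPM). Fibroblast markers as a sum did not overlap either, at 23720 to 40296 against 15642 to 23591 CPM for 10 genes (1 of 10 called higher). Of these genes, Col3a1 alone did not overlap by itself, at 8338 to 13934 against 6250 to 7840 CPM. Summed markers of endothelial, leukocyte and epithelial cells were low and overlapped: 37.7 to 65.2 against 40.2 to 63.9 CPM for 12 endothelial, 4.94 to 18.6 against 5.61 to 16.9 for 15 leukocyte and 7.13 to 21.2 against 13.3 to 24.7 for 14 epithelial genes. For 6 mesothelial genes the sums were 43.2 to 79.6 against 71.6 to 100.9 CPM, nearly all from Wt1. By edgeR, Wt1 differed by -0.54 in log2 (adjusted p = 0.099), and by -0.93 without Naive 3, 4 and 5 (adjusted p = 0.011). Cldn5 of the endothelial and C1qa, Nkg7 and S100a8 of the leukocyte list were at 0 in every library, and the endothelial gene Cdh5 was lower in Naive (log2 fold change -1.67, adjusted p = 0.037; 0.27 without Naive 3, 4 and 5). The part of these lists and of the mitochondrial share in the members' differences was not tested. The members' results are given for all 12 libraries, and again without Naive 3, 4 and 5 or without Stromal 6 where that changed a call.

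Of the 33 members tested, 7 rose in Naive and 0 fell. Those that rose were the transcription factors Egr1, Atf3 and Nr4a3, the mRNA decay factors Zfp36 and Zfp36l1, the NF-kB inhibitor Nfkbia and the antiproliferative gene Btg2. The calls are those of edgeR's quasi-likelihood test at a Benjamini-Hochberg adjusted p under 0.05 over all 14523 genes tested, of which 4.55% were called higher and 0.854% lower. At an unadjusted p under 0.05, 13 members were higher and 2 were lower, beside 1862 and 1027 of all 14523 genes. DESeq2 called 9 members higher and 2 lower (1033 and 348 of all genes), and limma-voom 10 and 1 (675 and 230). The log2 fold change (Naive minus Stromal) was above 0 for 26 members and below 0 for 7, with a median of 0.58, while the median of all genes tested was -0.00060. The 6 Naive libraries lay wholly above the 6 Stromal libraries for 3 members, Egr1, Zfp36 and Btg2, and wholly below for none. Over all genes tested, 2.86% lay wholly above and 0.806% wholly below. Naive also held GFPhigh cells, and in a mixture more cells of a type and more RNA per cell cannot be told apart.

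Without Naive 3, 4 and 5 fewer members passed. Btg2 alone of 33 members was called higher and none lower, in a fit that called 1.56% of 15703 genes higher and 0.318% lower. The members' median log2 fold change was then 0.39, and that of all genes -0.060. With Naive 3 or Naive 4 left out alone, 3 members were called (Btg2, Zfp36 and Zfp36l1). Without Stromal 4 there were 4, which were these 3 and Nr4a3. Without the library labelled Stromal 6 there were again 7, with Fos and Dusp1 in the place of Nr4a3 and Nfkbia. Offsets for the GC content of each library, added after the data had been seen, gave 8 calls, the 7 named and Dusp1. Calls over all genes changed in these fits as well. With all 12 libraries, 661 of 14523 genes were called higher. The number was 406 of 14875 without Naive 3 and 450 of 14836 without Naive 4. It was 504 of 14907 without Stromal 4, 540 of 14931 without Stromal 6, and 709 of 14523 with GC offsets.

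**Figure D1:**
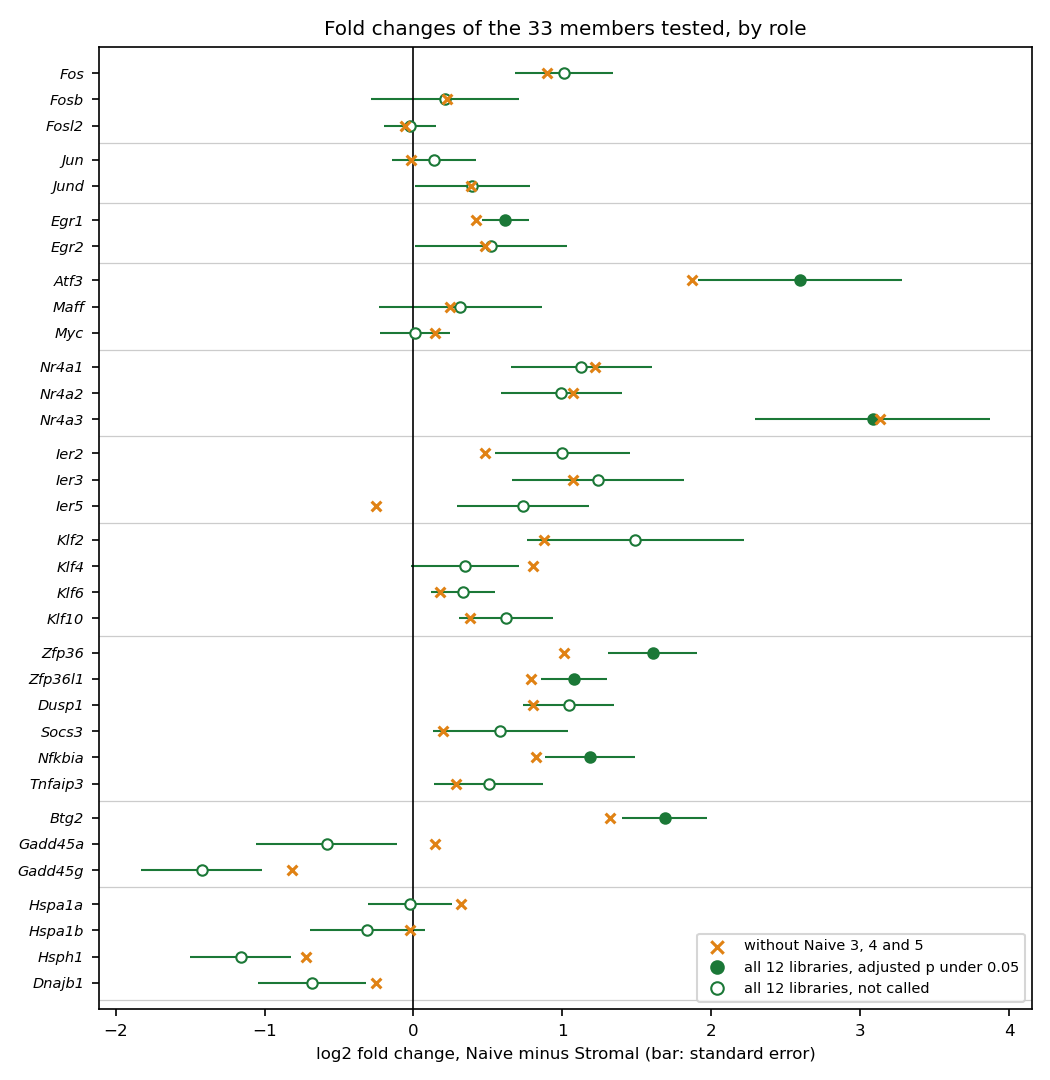
Log2 fold change (Naive minus Stromal) of the 33 members tested, by role, with its standard error (circles, filled where adjusted p is under 0.05) and the estimate without Naive 3, 4 and 5 (crosses). The 7 filled circles lie between 0.62 and 3.08, and all 4 heat shock genes at the bottom lie below 0.

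Of the 6 tested genes of mRNA decay and signal feedback, which switch the response off, 3 were called, and the 6 had a median log2 fold change of 1.06. Zfp36 encodes tristetraprolin, which binds AU-rich transcripts and hands them to decay, and it spans chr7:28376784-28380253. It ran from 108 to 297 CPM in Naive (median 196) and from 39.8 to 97.6 in Stromal (median 51.6). The groups did not overlap, and the 3 highest values were those of Naive 3, 4 and 5, at 229, 297 and 228. Zfp36 was higher by 1.61 in log2 (SE 0.30, adjusted p = 0.0046), at 189 ± 75.6 against 62.0 ± 25.7 CPM (SD, n = 6 each, edgeR). This call was kept in each of the 12 fits that left out 1 library, and without Naive 3, 4 and 5 the difference was 1.01 (adjusted p = 0.079; 1.68e-05 to 0.079 over 21 alternatives).

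Zfp36l1, a relative of Zfp36 with the same kind of RNA-binding fingers, ranged from 49.1 to 106 CPM in Naive (median 82.1) and from 28.6 to 60.7 in Stromal (median 32.4). One Naive library, Naive 1, lay below Stromal 5, which was the highest of its group. Zfp36l1 was higher by 1.08 in log2 (SE 0.22, adjusted p = 0.0077 by edgeR), and 0.79 without Naive 3, 4 and 5 (adjusted p = 0.16, the highest of 21 alternatives and the sole one that lost the call; lowest 0.00067). Zfp36l1 shares 56.0% of its exonic bases with the antisense gene Gm26669, and strand was not used in counting, so reads of the pair cannot be told apart. Nfkbia encodes the inhibitor that holds NF-kB in the cytoplasm. Its level was 7.35 to 24.0 CPM in Naive (median 18.5) and 4.62 to 9.77 in Stromal (median 7.49). Naive 1 at 7.35 was the one Naive library inside the Stromal range. Nfkbia was higher by 1.19 in log2 (SE 0.30, adjusted p = 0.028 by edgeR). The call of Nfkbia was lost without Naive 3, 4 or 5 or Stromal 1, 4 or 6, each left out alone, at log2 fold changes of 1.14, 1.13, 1.07, 1.07, 1.15 and 1.17 (adjusted p 0.051 to 0.071; 0.0032 to 0.38 over all alternatives).

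Dusp1, a phosphatase that switches off MAP kinases, was close to the threshold. Its level was 116 to 226 CPM in Naive (median 133) and 37.6 to 149 in Stromal (median 56.2). Naive 4 stood above all others, and of the Stromal libraries only Stromal 6 reached the Naive range. Dusp1 differed by 1.04 (SE 0.31, adjusted p = 0.061 by edgeR), and by 1.39 without Stromal 6 (adjusted p = 0.0039; 0.0039 to 0.35 over its alternatives). Tnfaip3, which edits ubiquitin in NF-kB signalling, had 50.1 ± 21.5 CPM in Naive and 35.3 ± 15.5 in Stromal (log2 fold change 0.51, adjusted p = 0.49). Socs3, an inhibitor of cytokine receptors, stood at 4.33 ± 1.596 and 2.89 ± 1.43 CPM (0.58, adjusted p = 0.53). Dusp5 was not tested, with 28 reads in Naive and 3 in Stromal, most of the former from Naive 2.

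Btg2, which slows entry into the cell cycle, lies at chr1:134075170-134079120 and had the smallest adjusted p of the members. It ranged from 42.04 to 104 CPM in Naive (median 67.2) and from 8.36 to 31.1 in Stromal (median 24.2). Every Naive library was above every Stromal one. Btg2 was higher by 1.69 in log2 (SE 0.29, adjusted p = 0.0018 by edgeR) and 1.32 higher without Naive 3, 4 and 5 (adjusted p = 0.036, the highest of 21 alternatives; lowest 2.2e-06). The call held in all 21.

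The Gadd45 genes, stress sensors that bind cell cycle and kinase proteins, separated Naive 3, 4 and 5 from the other Naive libraries. Other members did so too, Zfp36, Atf3, Klf4, Ier5 and Hsph1 among them. The same libraries were split off by the axis with most variance (34.0%), so the split is not particular to Gadd45 genes. The share of all genes tested with such a split was not computed. Gadd45a had 6.93, 5.95 and 6.92 CPM in Naive 3, 4 and 5, and 28.5 to 46.2 in Naive 1, 2 and 6. Stromal libraries ran from 20.4 to 38.5 (median 33.9), so the low libraries lay below every Stromal one, Naive 1 and 6 among them and Naive 2 above. Gadd45a differed by -0.58 (SE 0.47, adjusted p = 0.55 by edgeR), and 0.15 without those 3 libraries. Gadd45a shares 19.1% of its exonic bases with an antisense gene. Gadd45g stood at 2.72, 4.36 and 7.52 CPM in Naive 3, 4 and 5, at 14.3 to 17.97 in Naive 1, 2 and 6, and at 17.96 to 38.4 in Stromal (median 30.03). All but 1 Naive library lay below the lowest Stromal one, and Naive 2 lay level with it. The log2 fold change was -1.42 (SE 0.41, adjusted p = 0.052 by edgeR), and -0.81 without Naive 3, 4 and 5. Leaving out Naive 1, Naive 2 or Stromal 1 alone brought it under the threshold, at -1.61, -1.63 and -1.53 (adjusted p = 0.034, 0.030 and 0.046; 0.0075 to 0.24 over its alternatives). Gadd45b did not pass the filter on low counts, and its values went the other way, with 1.501, 2.88 and 3.99 CPM in Naive 3, 4 and 5 and 0.15 to 0.32 in Naive 1, 2 and 6. The summed interferon response genes given above separate the same libraries, and their part in these differences was not tested.

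Egr1, a zinc finger factor, was the most abundant member, at 164 RPKM, which are CPM per kilobase of exon. In Naive it ran from 754 to 1099 CPM (median 823) and in Stromal from 458 to 718 (median 592). The groups did not overlap, although Stromal 2 at 718 and Naive 1 at 754 were close. The log2 fold change was 0.62 (SE 0.16, adjusted p = 0.027 by edgeR). That call was lost without Naive 3, Naive 4, Stromal 3 or Stromal 4, each left out alone, at 0.53, 0.55, 0.56 and 0.56 (adjusted p 0.066 to 0.090). Without Naive 3, 4 and 5 it was 0.42 (adjusted p = 0.25, the highest of 21 alternatives; lowest 0.0093). Egr2 had 4.96 ± 3.35 CPM in Naive and 3.46 ± 1.69 in Stromal (log2 fold change 0.52, adjusted p = 0.63). Egr3 had 1 read in each group.

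Atf3, a repressor of the CREB family that many stresses switch on, lies at chr1:191170296-191218039. It stood at 13.7 to 50.7 CPM in Naive (median 23.6) and at 0.38 to 14.4 in Stromal (median 3.29). Naive 3 and 4 were highest, and Stromal 6 at 14.4 was the single Stromal library to reach the Naive range, just above Naive 6. Atf3 was higher by 2.60 in log2 (SE 0.69, adjusted p = 0.042 by edgeR). The call was lost without Naive 3, 4 or 5 or Stromal 1, 2, 4 or 5, each left out alone, at 2.33, 2.45, 2.62, 2.39, 2.60, 2.42 and 2.66 (adjusted p 0.066 to 0.092). Without Stromal 6 the difference was 3.36 (adjusted p = 0.0065), and without Naive 3, 4 and 5 it was 1.87 (adjusted p = 0.28; 0.00029 to 0.28 over all alternatives). Maff, a small partner of basic leucine zipper factors, had 2.92 ± 1.14 and 2.34 ± 1.75 CPM (log2 fold change 0.32, adjusted p = 0.81). Myc, the growth regulator, had 33.5 ± 8.22 and 33.3 ± 11.6 CPM (0.010, adjusted p = 0.99).

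**Figure D2:**
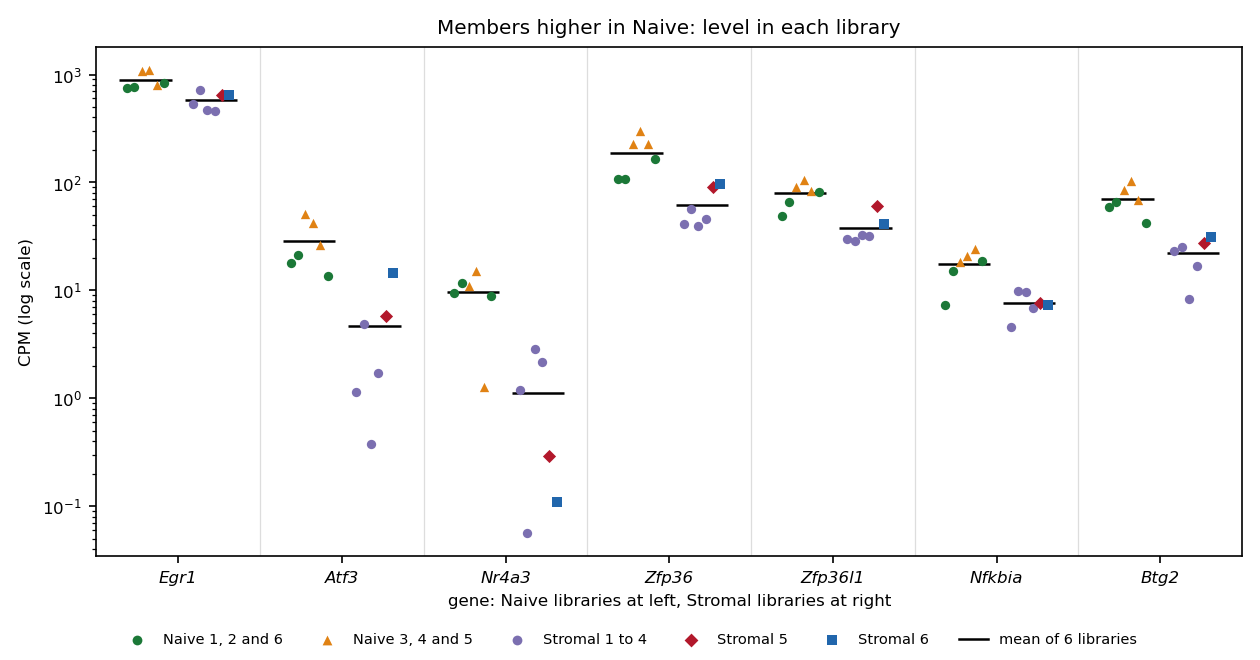
CPM in each library (points, log axis) of the 7 members that rose in Naive, with the mean of 6 libraries as a line. Egr1, Zfp36 and Btg2 do not overlap between groups, Atf3 reaches 14.4 in Stromal 6, and Nr4a3 falls to 1.26 in Naive 5.

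The Nr4a genes encode orphan nuclear receptors, and all 3 had positive log2 fold changes (median 1.13). Nr4a3, at chr4:48045153-48086447, ran from 1.26 to 15.2 CPM in Naive (median 10.1) and from 0.056 to 2.89 in Stromal (median 0.75). Naive 5 alone of its group, at 1.26, lay within the Stromal range. The log2 fold change of Nr4a3 reached 3.08 (SE 0.79, adjusted p = 0.031 by edgeR), the largest among members tested, on 785 reads in Naive and 109 in Stromal. It was not called without Naive 3, Naive 4, Stromal 1, Stromal 5 or Stromal 6, each left out alone, at 3.01, 2.90, 3.10, 2.89 and 2.84 (adjusted p 0.051 to 0.068; 0.00046 to 0.068 over all alternatives). In contrast to Zfp36 and Atf3, its estimate was as large without Naive 3, 4 and 5, at 3.13 (adjusted p = 0.061). Nr4a1 had 3.48 to 6.81 CPM in Naive (median 5.07) and 0.65 to 3.79 in Stromal (median 2.64). Those ranges met at their edges, and Nr4a1 differed by 1.13 (SE 0.47, adjusted p = 0.18 by edgeR). Nr4a2 had 16.3 ± 2.05 CPM in Naive and 8.17 ± 7.02 in Stromal (0.99, adjusted p = 0.18). Stromal 1 held 22.01 CPM of Nr4a2 and the other Stromal libraries 2.37 to 7.23. Without Stromal 1 the log2 fold change was 1.59 (adjusted p = 0.0075; 0.0075 to 0.40 over its alternatives).

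The AP-1 subunits, which pair Fos with Jun proteins, were abundant, and 0 of the 5 tested were called by edgeR. At an unadjusted p under 0.05, 1 of them (Fos) was higher, and both DESeq2 and limma-voom called it. Fos had 161 to 291 CPM in Naive (median 208) and 38.4 to 194 in Stromal (median 83.3). Stromal 5 and 6 were at 194 and 184, inside the Naive range, and the other 4 at 83.4 or less. Fos differed by 1.01 (SE 0.33, adjusted p = 0.094 by edgeR). It was called without Stromal 5 (1.25, adjusted p = 0.033) and without Stromal 6 (1.22, adjusted p = 0.049; 0.033 to 0.44 over its alternatives). Fosb, a second Fos protein, ran from 128 to 234 CPM in Naive (median 167) and from 36.8 to 375 in Stromal (median 78.8). Its Stromal values were 255 and 375 in Stromal 5 and 6 and 36.8 to 81.4 in the other 4. The log2 fold change of Fosb was 0.21 (SE 0.49, adjusted p = 0.87 by edgeR). Jun lay between 163 and 234 CPM in Naive (median 206) and between 88.2 and 343 in Stromal (median 148). Stromal 5 and 6, at 343 and 269, exceeded every Naive library. Jun differed by 0.14 (SE 0.28, adjusted p = 0.84 by edgeR).

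The spread of Fos, Fosb and Jun was wider among Stromal than among Naive libraries, at SDs of 63.8, 134 and 102 against 49.4, 45.8 and 24.5 CPM. Stromal 5 is the Stromal library apart from its group on the second principal component, and Stromal 6 the one whose column is named N8. The part of either in these values was not tested. Fosl2, a Fos relative with a long transcript and little spread between libraries, had 159 ± 31.0 and 162 ± 34.5 CPM (log2 fold change -0.026, adjusted p = 0.96). Jund, the constitutive Jun protein, had 6.85 ± 1.10 and 5.21 ± 3.42 CPM (0.40, adjusted p = 0.63), and 18.9% of its exonic bases are shared with an antisense gene. Fosl1 and Junb were not tested. Junb had 69 reads in Naive and 16 in Stromal, and Fosl1 28 and 13.

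The Klf zinc finger factors, of which 4 were tested, all had estimates above 0. By edgeR 0 were called, with 0 at an unadjusted p under 0.05 and 0 by DESeq2 or limma-voom. Klf2 had 0.40 to 3.93 CPM in Naive (median 2.73) and 0.13 to 2.47 in Stromal (median 0.67). The ranges overlapped widely, and Klf2 differed by 1.49 (SE 0.73, adjusted p = 0.27 by edgeR), the largest estimate without a call. Klf4 ran opposite to Zfp36 within Naive, with 89.5, 113 and 103 CPM in Naive 1, 2 and 6 and 54.5, 44.5 and 34.4 in Naive 3, 4 and 5. In Stromal it was highest in Stromal 5 and 6 (99.2 and 96.8) and 31.3 to 47.7 in the others, and its log2 fold change was 0.35 (adjusted p = 0.66). Klf6 had 133 ± 22.9 and 105 ± 43.5 CPM (0.33, adjusted p = 0.43), and Klf10 had 15.3 ± 3.69 and 9.93 ± 3.99 (0.62, adjusted p = 0.29). Of the Ier genes, small proteins named for their immediate early response, 0 of 3 were called by edgeR, DESeq2 or limma-voom, and 2 were higher at an unadjusted p under 0.05. Ier3 had 0.86 to 3.93 CPM in Naive (median 1.78) and 0.45 to 1.38 in Stromal (median 0.79). Ier3 differed by 1.24 (SE 0.58, adjusted p = 0.24 by edgeR). Ier2 had 5.85 ± 2.55 and 2.92 ± 1.53 CPM (1.00, adjusted p = 0.23). Ier5 had 12.1 to 15.1 CPM in Naive 3, 4 and 5 and 3.48 to 5.65 in Naive 1, 2 and 6, against 2.54 to 11.5 in Stromal. Its log2 fold change of 0.74 turned to -0.25 without Naive 3, 4 and 5 (adjusted p = 0.39 and 0.91).

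Heat shock genes, chaperones that refold proteins, had estimates below 0. All 4 tested had log2 fold changes below 0, with a median of -0.50, and 0 were called by edgeR. At an unadjusted p under 0.05, 1 was lower (Hsph1), which DESeq2 called and limma-voom did not. Without Naive 3, 4 and 5, Hspa1a had an estimate of 0.32 and Hspa1b one of -0.026. Hsph1, a large chaperone of the Hsp110 family, had 44.1 to 129 CPM in Naive (median 65.2) and 58.4 to 242 in Stromal (median 177). Naive 3, 4 and 5 were lowest at 44.1 to 48.3, and Stromal 5 at 58.4 was far below the other Stromal libraries (120 to 242). Hsph1 differed by -1.16 (SE 0.34, adjusted p = 0.063 by edgeR), and by -0.72 without Naive 3, 4 and 5. It passed without Naive 6 (-1.40, adjusted p = 0.021) and without Stromal 5 (-1.34, adjusted p = 0.014; 0.0093 to 0.42 over its alternatives). Hspa1a, one of the inducible Hsp70 genes, had 61.1 ± 30.6 and 62.1 ± 20.2 CPM (-0.026, adjusted p = 0.98). Its near-copy Hspa1b had 29.4 ± 14.1 and 36.4 ± 19.0 CPM (-0.31, adjusted p = 0.72). They share 66.3% and 62.3% of their 50-base stretches, so reads may have been split or lost between them, and their summed counts gave -0.12 (adjusted p = 0.87). Dnajb1, an Hsp40 partner of Hsp70, had 11.4 ± 7.23 and 18.3 ± 7.30 CPM (-0.68, adjusted p = 0.31). Hspb1 was not tested, with 25 and 31 reads, and shares 51.6% of its 50-base stretches with a pseudogene.

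**Figure D3:**
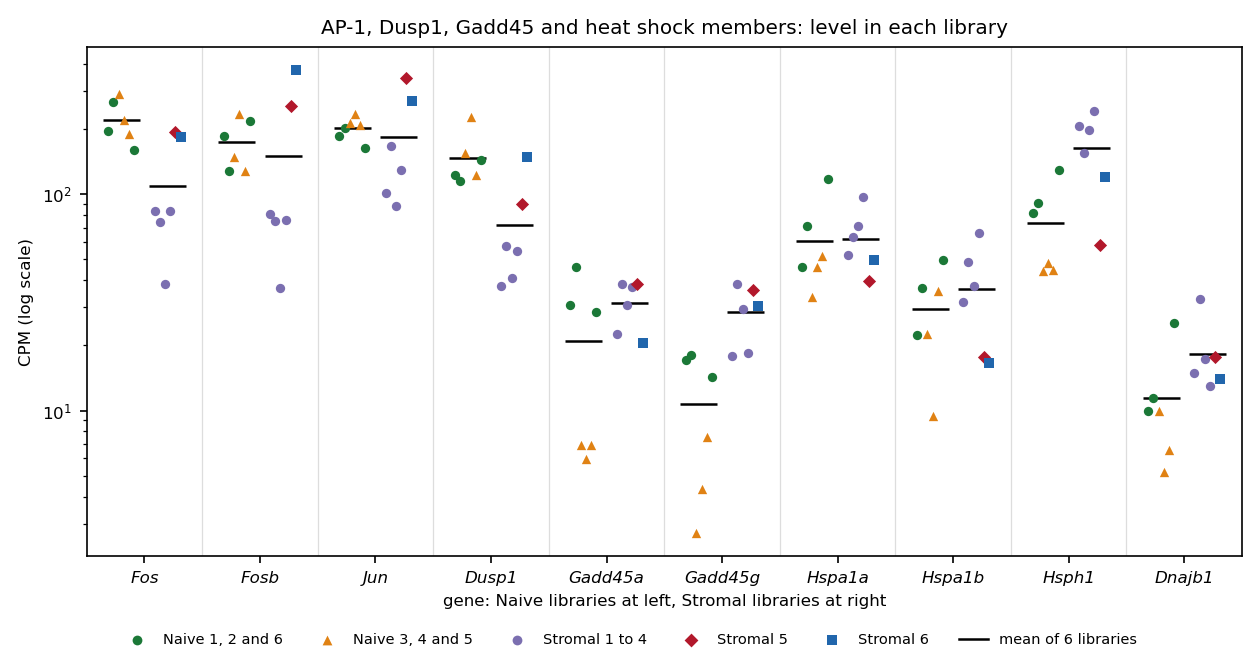
CPM in each library (points, log axis) of 10 members that were not called, with the mean of 6 libraries as a line. Stromal 5 and 6 hold the highest Fosb and Jun values and Stromal 5 the lowest Hsph1 of its group, and Naive 3, 4 and 5 lie between 5.95 and 6.93 for Gadd45a.

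Within each group the libraries also differed as a pattern over the members. Naive 4 held the highest Naive value for 13 of 33 members (39.4%), while it held the highest for 21.2% of all genes tested. Stromal 5 was highest in its group for 11 of 33 (33.3%, against 22.3% of all genes). The median spread within groups was close to that of all genes tested, which were not matched to the members by level. The residual SD of log2 CPM around the 2 group means had a median of 0.69 over the members and 0.66 over all genes tested, which put the members at the 53rd percentile. Individual members spanned much of that scale. Egr1 had the smallest at 0.26 and Fosl2 came next at 0.31, and the largest were Nr4a3 at 1.501, Atf3 at 1.33, Klf2 at 1.203, Gadd45a at 0.97 and Fosb at 0.93.

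**Figure D4:**
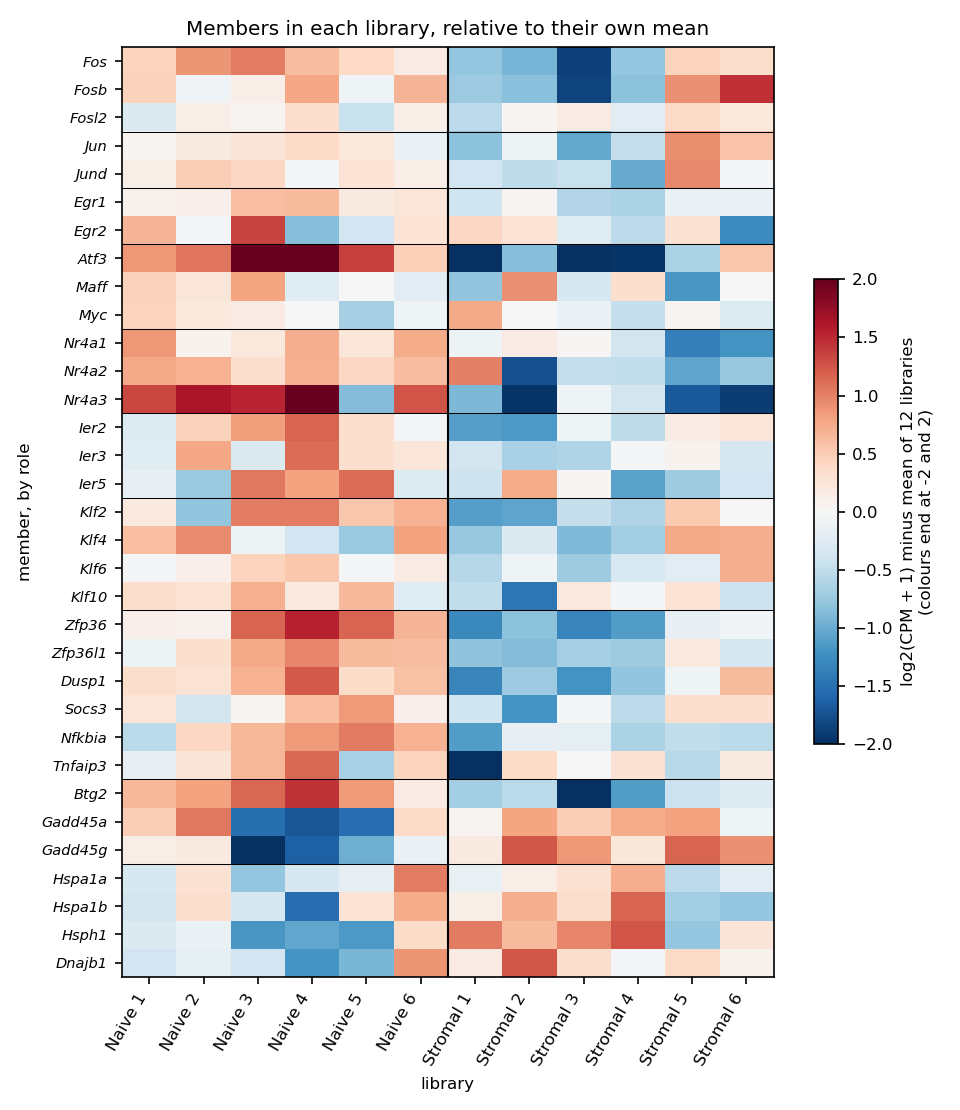
Level of the 33 members tested in each of the 12 libraries, as log2(CPM + 1) minus the member's own mean (colour), by role. Naive 3, 4 and 5 are blue for Gadd45a and Gadd45g and red for Atf3 and Zfp36, and Stromal 5 and 6 are red for Fosb and Jun.

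Per length, Egr1 was followed by Fos at 70.2 RPKM, Jun at 60.3, Dusp1 at 40.7 and Zfp36 at 36.2. At the other end of the members tested stood Nr4a3 at 0.89 and Klf2 at 0.95 RPKM. Junb, at 0.25 RPKM, was far below Jun and Fos. The median GC content of the members was 54.4%, against 49.3% of protein-coding genes tested. The 5 members above 60% GC were Ier2, Jund, Klf2, Hspb1 and Junb, with a median of 0.95 RPKM, and 3 of them passed the filter. Of all protein-coding genes above 60% GC, 35.8% passed it, against 61.8% of those between 45% and 50%. Libraries differed in how level went with GC. From 45% to 60% GC the log2 tilt ran from -0.48 in Naive 3 to 0.44 in Stromal 6. The part of GC content in the low levels was not tested.

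**Figure D5:**
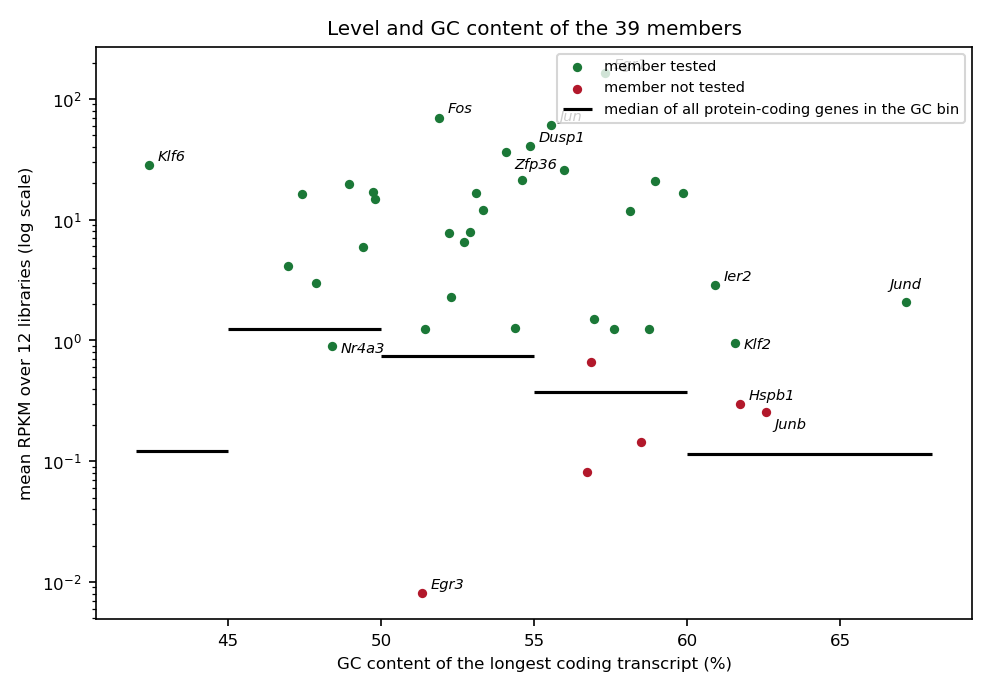
Mean RPKM over 12 libraries (log axis) of the 39 members against the GC content of their longest coding transcript, with the median of all protein-coding genes in each GC bin as a line. Egr1 is highest at 164 RPKM, and the 5 members above 60% GC lie at or below 2.88.

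In the lists around the members, most calls were higher. Over all genes tested, 4.55% were called higher and 0.854% lower. Among 23 other immediate early genes tested, 5 were called higher and 0 lower, at a median log2 fold change of 0.25. The largest were Ccn2, a matricellular growth factor modulator (4.69, SE 0.94, adjusted p = 0.010), and Cxcl1, a neutrophil chemokine (4.11, SE 1.03, adjusted p = 0.031). Ptgs2, the inducible prostaglandin synthase (2.84), and Gem, a small GTPase (2.47), came next. Without Naive 3, 4 and 5, Ccn2 (2.37, adjusted p = 0.28), Cxcl1 (2.01, adjusted p = 0.53) and Gem (1.36, adjusted p = 0.062) were not called. Ptgs2 was also called without Naive 3, 4 and 5 (2.97, adjusted p = 0.015). Of 13 MAP kinase feedback genes, 2 were higher, Dusp6 (3.44) and Spred1 (0.94), and 1 was lower, the Egr corepressor Nab2 (-1.87, SE 0.53, adjusted p = 0.049). Of 10 NF-kB feedback genes, 2 were higher, the adhesion molecule Icam1 (2.44) and the atypical inhibitor Nfkbiz (1.96, SE 0.27, adjusted p = 0.00046), and both were also called without Naive 3, 4 and 5. Of 17 upstream factors, the coactivator Mrtfb was higher (0.78) and Creb1, which binds the cAMP response element, was lower (-0.91, SE 0.20, adjusted p = 0.012). Among 8 p53 target genes Trp53inp1 was higher (1.79). Without Naive 3, 4 and 5, Dusp6, Spred1, Nab2, Mrtfb, Creb1 and Trp53inp1 all lost their calls, at 3.06, 0.77, -1.38, 0.54, -0.59 and 0.45 (adjusted p = 0.20, 0.074, 0.33, 0.23, 0.061 and 0.69). Of 17 other heat shock factor targets 0 were called by edgeR, DESeq2 or limma-voom, 4 were lower at an unadjusted p under 0.05, and 15 had estimates below 0 (median -0.29), with Hsp90ab1 at 295 CPM in Naive and 402 in Stromal (-0.45, adjusted p = 0.14). Of 9 integrated stress response genes 0 were called by the same 3 tools and 1 was lower at an unadjusted p under 0.05. Their median was -0.62, and 0.044 without Naive 3, 4 and 5.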

How the data were processed

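RNA was sequenced from 12 libraries of sorted uterine cells. Raw counts of read pairs were deposited for each gene. The authors counted them over exons, per the file headers, with featureCounts 1.6.4, by gene of Ensembl release 84 on GRCm38, at a mapping quality of at least 10 and without strand. Per the labels' protocols, the library is named TruSeq DNA Nano gel free. The submitters' processing notes name cutadapt and SAMtools. No aligner is named in the sources used here. Single files and the deposited series table agreed in all counts for 12 of 12 libraries.

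Genes kept by filterByExpr were scaled by TMM and tested with edgeR 4.0.16 in R 4.3.3 (quasi-likelihood F test, robust), Naive minus Stromal, without covariates. P-values are two-sided and Benjamini-Hochberg adjusted over all genes tested. SE values are the absolute log2 fold change over the root of F. CPM use TMM-scaled library sizes, RPKM divide them by exonic length, and log2 CPM for the residual SD used a prior count of 2. The scripts were tested on simulated data. GENCODE M21 gave names, transcripts and GC content, and RefSeq the promoter windows.

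The members and all lists were chosen with earlier results of these data known. Described in full were called members, the 5 with the highest RPKM, the 5 with the highest residual SD and the 5 with the largest change without a call, and of other lists up to 4 called genes. Alternatives were RLE factors, total library size, no mitochondrial genes, DESeq2 1.42.0, limma-voom 3.58.1, no filter, a replicate block, libraries left out, and GC offsets added after seeing the data.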

Additional observations from a re-analysis of the deposited data

Results flagged for a closer look

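In 66 groups of 6 libraries (33 members in 2 groups), 7 held a library whose gap to its nearest neighbour was large for the range of the group by Dixon's criterion, each time the highest. The criterion flags about 1 in 20 groups of independent, normally distributed values. Whether CPM meet that was not tested, and the members share the same libraries, so 7 of 66 cannot be set against that rate. Nr4a2 stood at 22.01 CPM in Stromal 1, against 2.37 to 7.23 in the other Stromal libraries, and Myc was also highest there, at 55.5 CPM against 22.8 to 33.5. Dnajb1 was apart in both groups, at 25.4 CPM in Naive 6 (others 5.22 to 11.4) and 32.7 CPM in Stromal 2 (others 13.0 to 17.6). Dusp1 reached 226 CPM in Naive 4, where the other Naive libraries had 116 to 155. Klf6 was at 189 CPM in Stromal 6, above 69.5 to 107 in the others. Jund was at 11.9 CPM in Stromal 5, above 2.30 to 5.54.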

How the results depend on the processing

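No member's called direction reversed under any alternative. Btg2 kept its call in 21 of 21 alternatives, Zfp36 and Zfp36l1 in 20, Nr4a3 in 15, Egr1 in 14, Nfkbia in 13 and Atf3 in 10. Members called higher numbered 7, and 4 when total library size alone set the scale, 1 without Naive 3, 4 and 5, and 3 to 7 with 1 library left out. Members called lower numbered 0, and 1 with RLE factors, 1 without mitochondrial genes, 1 with limma-voom, 2 with DESeq2 and 2 with total library size only, which were Gadd45g and Hsph1, and 0 to 1 with 1 library left out. Over all genes, 661 were called higher and 124 lower. DESeq2 called 1033 and 348, the fit without Naive 3, 4 and 5 called 245 and 50, and with 1 library left out the counts were 406 to 791 and 61 to 179. Total library size only gave 505 higher and 257 lower, and limma-voom 675 and 230. The cause of these differences was not tested. The members' median log2 fold change was 0.39 to 0.72 over all alternatives, lowest without Naive 3, 4 and 5 and highest with GC offsets.

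With the replicate number as a block, 6 members were called higher (Dusp1 joined, Egr1 and Atf3 were lost), 1 lower (Gadd45g), and 492 genes in all were called higher. Libraries with the same number correlated at -0.14 to 0.089 in their deviations from the group means. Among libraries of the same number, 2 and 6 alone matched each other best in both directions. Naive 3 and Stromal 1, with different numbers, did so too. No label pairs the libraries, and these correlations cannot settle whether those of the same number shared a mouse or a preparation. Junb, Fosl1, Egr3, Dusp5, Gadd45b and Hspb1 did not pass the filter on low counts. In the fit without it 0 of the 6 were called by edgeR, with Gadd45b (3.08) and Dusp5 (3.32) at an unadjusted p of 0.0098 and 0.049, and their adjusted p ran from 0.13 to 0.96.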
